A study of Mus musculus with 25 samples.

Results

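Transcripts of 10 genes of the liver's blood vessel lining, out of 33815 genes and unnamed transcripts on the array, were followed through mouse livers in which Mcl-1 was deleted in hepatocytes, and through the tumors of these animals. The members were listed by name, not by a threshold on measured values, though earlier results of these data were known when they were chosen: Pecam1, Cdh5, Stab2, Lyve1, Clec4g, Kdr, Flt1, Tek, Eng and Vwf. Each gene was read from its probe with the highest mean signal. The probes were well above background on 25 of 25 arrays for all 10 genes, and none was saturated or marked as an outlier.

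RNA came from homogenates of whole liver, and 25 single-colour arrays covered 18 untreated mice in 8 groups. At 2 months there were 2 wild-type, 3 Mcl-1 hemizygous and 3 Mcl-1 ko (knockout) mice, described as littermates. The 12-month groups held 3 wild-type and 4 knockout animals, and a knockout group of 8 months held 3. From each of the 7 older knockouts came both a tumor, labelled as hepatocellular carcinoma, and the corresponding non-tumor liver. The labels name neither the driver of the hepatocyte-specific deletion nor the sex of the mice, and no wild-type or hemizygous mouse of 8 months and no tumor outside the knockout was measured.

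The sinusoids of the liver are lined by endothelial cells that differ from those of other vessels: they have pores, lack a continuous basement membrane and clear waste molecules from the blood through scavenger receptors. Stab2 (stabilin-2, which takes up hyaluronan), Lyve1 (a hyaluronan receptor also found on lymphatic vessels) and Clec4g (a C-type lectin) are typical of this sinusoidal lining. Pecam1 and Cdh5 (VE-cadherin) hold endothelial cells together in all vessels, and Vwf (von Willebrand factor) is the platelet-binding protein stored by endothelium of larger vessels. Kdr and Flt1 are the main VEGF receptors, with Flt1 also acting as a decoy, Tek is the receptor of the angiopoietins, and Eng (endoglin) is a co-receptor for BMP9 and TGF-beta signals. In liver disease the sinusoids can lose their specialised genes and take on features of ordinary capillaries, such as Cd34 expression.

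RefSeq's promoter table (GRCm38.p6) held a start site for 6 of the 10 genes (Stab2, Kdr, Tek, Clec4g, Flt1 and Eng). Shown are the bases before the start that lie outside the annotated gene for Stab2 and Clec4g, whose levels varied together, and for Eng, whose levels ran against those of Lyve1, Vwf and Flt1. Capitals mark AGGAAG, the letters of a site type bound by ETS factors, or its reverse complement CTTCCT; overlapping matches were counted separately.
Stab2, chr10:87008039-87008192, minus strand: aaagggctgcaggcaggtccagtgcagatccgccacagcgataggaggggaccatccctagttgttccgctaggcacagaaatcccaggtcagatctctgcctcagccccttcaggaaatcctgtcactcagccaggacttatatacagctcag
Clec4g, chr8:3720696-3720901, minus strand: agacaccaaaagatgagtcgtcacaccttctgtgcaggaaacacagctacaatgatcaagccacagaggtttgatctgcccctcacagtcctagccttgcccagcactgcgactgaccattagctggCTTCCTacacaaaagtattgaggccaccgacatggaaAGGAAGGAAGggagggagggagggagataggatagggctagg
Eng, chr2:32646345-32646594, plus strand: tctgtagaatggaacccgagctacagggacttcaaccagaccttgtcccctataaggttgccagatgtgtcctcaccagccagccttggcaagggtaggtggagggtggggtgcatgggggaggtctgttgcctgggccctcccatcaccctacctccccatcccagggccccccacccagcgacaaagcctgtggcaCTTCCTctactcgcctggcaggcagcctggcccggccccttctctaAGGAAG
In the full window of 250 bases before the start, Clec4g held 3 matches, Eng 2, Flt1 2 and Stab2 1; those of Flt1 and Stab2 lie within the annotated gene. Kdr and Tek held 0. The letters stood in 29.5% of all 32851 promoters of that length, and a match is a description of these bases, not a binding site.

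Levels are log2 of the processed signal minus the 75th percentile of the same array, so a difference of 1 is a doubling, and levels of different probes are not comparable. In whole liver, fewer endothelial cells and less RNA per cell cannot be told apart. Arrays held 60.4% to 85.0% of probes well above background, with wild-type mouse 641 highest, and lay on 8 slides scanned on 2 days. Mcl1 checked the labels: its mean level was 4.26 (SD 0.34, n = 2) in wild-type, 3.34 (SD 0.21, n = 3) in hemizygous and 1.82 (SD 0.28, n = 3) in knockout liver at 2 months, and at 12 months 4.28 (SD 0.35, n = 3) in wild-type and 2.62 (SD 0.19, n = 4) in non-tumor knockout liver. All 10 endothelial genes, which are also the defining markers of these cells, were above background in every group.

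**Figure D1:**
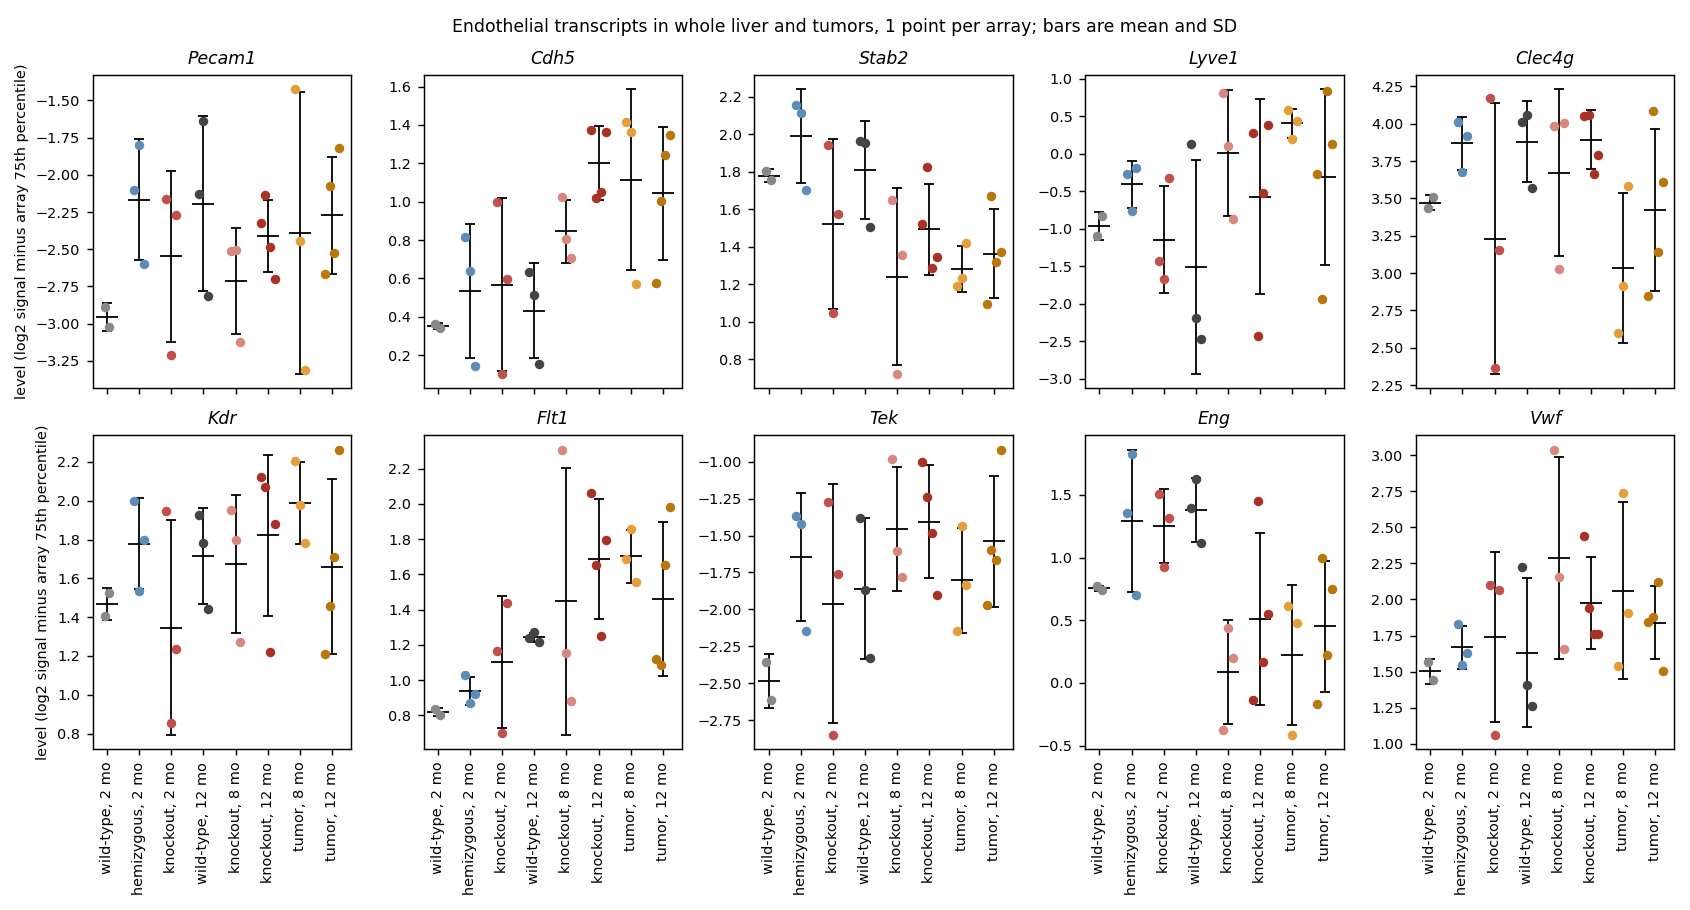
Level (log2 signal, scaled to each array's 75th percentile, vertical axis, its own scale in each panel) of each gene by group (horizontal axis), 1 point per array, with the mean and SD as a bar. On all but 1 array of the older knockout mice Eng lay below its lowest 12-month wild-type value of 1.12, and Lyve1 spread over 3.30 units.

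No member passed an adjusted p of 0.05 (limma, Benjamini-Hochberg over all genes) in any of the 13 comparisons made, and most comparisons called few genes of any kind. Unadjusted p-values under 0.05 are therefore named below as such, beside the share of all genes that reached the same mark. Where all values of a group are said to lie above or below another group, the share of all genes doing so was not counted. With so few arrays such a separation is a description only. Stab2 varied least within groups (SD 0.30) and Lyve1 most (SD 0.97). Over the 15760 genes well above background on all arrays the median SD within groups was 0.43, and 94.8% of them varied less than Lyve1. Fold ranges over the 25 arrays ran from 2.48 for Cdh5 to 9.82 for Lyve1.

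At 2 months, no endothelial transcript passed the test between knockout and wild-type liver. Clec4g read 3.44 and 3.51 in the wild-type mice and 4.17, 2.36 and 3.16 in knockout mice 137, 64 and 69. Stab2 read 1.80 and 1.75 in wild-type and 1.95, 1.05 and 1.58 in the same knockout mice. In both genes the knockout values lay on either side of the wild-type pair. Mouse 64 was the lowest of all 25 arrays for Cdh5, Kdr, Tek, Clec4g, Flt1 and Vwf, while mouse 137 was the highest of its group for 8 members, all but Lyve1 and Flt1.

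Knockout minus wild-type differences ran from -0.26 (SE 0.33) for Stab2 to 0.53 (SE 0.45) for Tek, with a median of 0.23 over the members and -0.02 over all genes. Of the 10 members, 0 had an unadjusted p under 0.05, against 8.85% of the 27116 genes tested. With adjustment 0 members and 0.0258% of genes (7) were called, and the lowest adjusted p of a member was 0.81. The 95% interval lay within 1 log2 unit of 0 for 3 members, so differences of 2-fold were not excluded for the other 7. Single mice moved these values either way. The difference of Tek was 0.97 without mouse 64 (unadjusted p = 0.038, adjusted p = 0.76, limma) and 0.18 without mouse 137 (unadjusted p = 0.70). That of Clec4g, -0.24 with all mice, was 0.19 without mouse 64 and -0.71 without mouse 137, and that of Kdr, -0.12 with all mice, was 0.12 and -0.42. With the slide in the fit, Clec4g differed by 0.77 and Kdr by 0.51, so neither direction was settled. No slide held both knockout and wild-type mice of 2 months, and the slide fit rests on hemizygous arrays that share a slide with either group. On the knockout side it uses mouse 137 alone, since mice 64 and 69 shared no slide with 2-month mice of another genotype.

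Hemizygous livers gave positive differences from wild-type for 10 of 10 members, with a median of 0.35 against -0.05 over all genes. The largest was Tek, at -1.37, -1.42 and -2.14 in the hemizygous mice and -2.36 and -2.62 in the wild-type mice, a difference of 0.84 (SE 0.45, unadjusted p = 0.084, adjusted p = 1, limma). All 3 hemizygous values lay above the wild-type pair, but the share of all genes that separate these groups was not counted. No member reached an unadjusted p of 0.05, as did 1.27% of genes, and 0% of genes were called after adjustment (limma). Hemizygous mouse 30, on the slide of both wild-type mice, lay above their mean for 7 of 10 members and below it for Cdh5 (-0.21), Stab2 (-0.08) and Eng (-0.06). It differed from them by 0.34 for Tek, where the whole group differed by 0.84. Mice 27 and 28 lay on another slide, so only 1 hemizygous array bears on the comparison within a slide.

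Against hemizygous liver, knockout liver was lower for 7 of 10 members, with a median difference of -0.35 against 0.06 over all genes. The lowest were Lyve1 at -0.73 (SE 0.76), whose 3 hemizygous values were -0.27, -0.77 and -0.19, and Clec4g at -0.64 (SE 0.38). No member and 8.3% of genes had an unadjusted p under 0.05, and no member and 0.0516% of genes (14) were called after adjustment. On the slide that held knockout mouse 137 with hemizygous mice 27 and 28, 4 of 10 members were lower in the knockout: Lyve1 by -0.92, Pecam1 by -0.21, Stab2 by -0.19 and Eng by -0.09. Clec4g (0.33), Kdr (0.18) and Tek (0.12) took the opposite direction there. Over all slides the difference of Clec4g was -0.20 without mouse 64 and -1.11 without mouse 137 (adjusted p = 0.39, limma).

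Markers of neighbouring cells had larger median differences than the members in the same livers. Of 6 stellate and pericyte genes 6 had positive differences between knockout and wild-type at 2 months and 5 an unadjusted p under 0.05 (8.85% of all genes), with a median of 1.35; none passed adjustment (lowest adjusted p = 0.33, limma). Their mean level ran from -0.35 to -0.27 in wild-type and from 0.89 to 1.07 in knockout mice. For 6 Kupffer cell genes the median was 0.997, and their mean level ran from 1.16 to 1.33 in wild-type and from 2.06 to 2.70 in knockout mice. Hepatocyte markers, 4 measured, had a median of -0.27. The part of these cell types in the members' values was not tested.

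**Figure D2:**
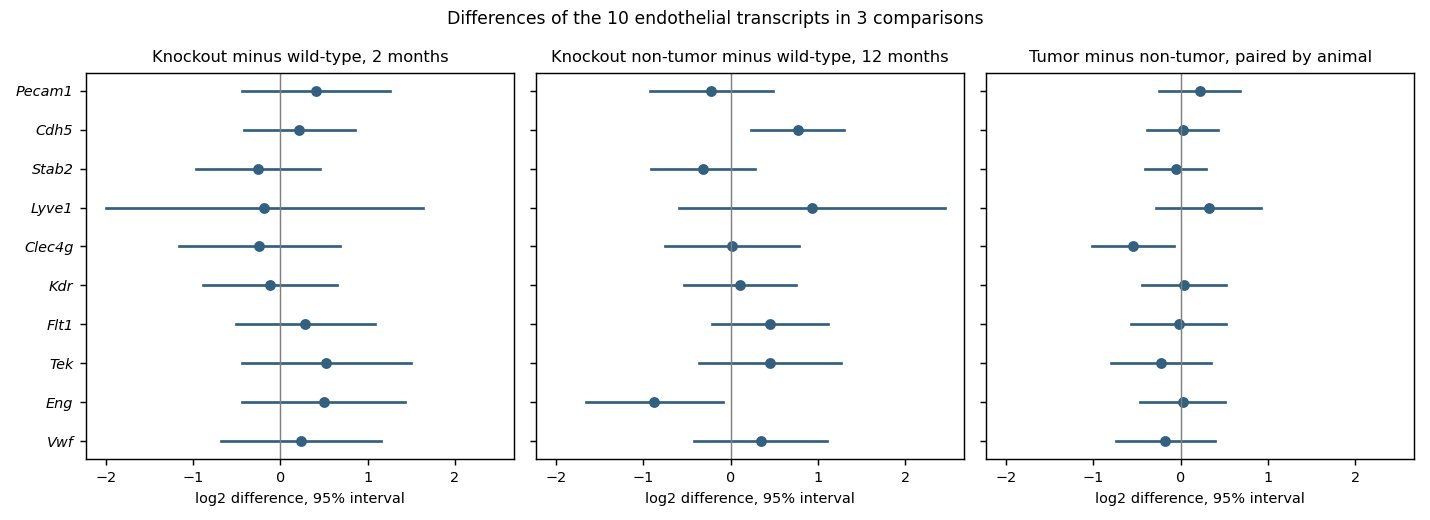
Log2 difference (horizontal axis) with its 95% interval for each of the 10 genes (vertical axis) in 3 comparisons, from left to right knockout minus wild-type at 2 months, non-tumor knockout minus wild-type at 12 months, and tumor minus non-tumor liver of the same animal. In the middle panel the intervals of Cdh5 and Eng lie to the right and to the left of 0, and in the right panel that of Clec4g lies to the left.

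At 12 months, non-tumor knockout liver was set against wild-type liver of the same age. Cdh5, the adherens junction cadherin, read 0.63, 0.51 and 0.15 in wild-type mice 552, 641 and 1110 and 1.38, 1.02, 1.05 and 1.36 in knockout mice 1109, 638, 702 and 793. The groups did not overlap, but the share of all genes that separate these groups was not counted. Of the 27124 genes tested, 17.2% had an unadjusted p under 0.05 and 0.0147% were called after adjustment (limma). The difference was 0.77 (SE 0.25), a 1.71-fold higher signal, with an unadjusted p of 0.0076 and an adjusted p of 0.15 (limma). Its dimmer probe differed by 0.33 in the same direction, and with the mean of both probes the difference was 0.55 (unadjusted p = 0.091).

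Eng, the endoglin co-receptor, took the opposite direction. It read 1.40, 1.63 and 1.12 in the wild-type mice and -0.13, 1.45, 0.17 and 0.55 in knockout mice 1109, 638, 702 and 793. Mouse 638 lay within the wild-type range and the other 3 knockout mice below it. The difference was -0.87 (SE 0.37), a 1.83-fold lower signal, with an unadjusted p of 0.032 and an adjusted p of 0.24 (limma). Without the non-tumor array of mouse 638 it was -1.18 with an adjusted p of 0.034, in a fit that then called 2850 genes in place of 4. Mouse 638 also stood apart for Lyve1, at -2.43 against 0.28, -0.53 and 0.38 in the other knockout mice.

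These were 2 of 10 members with an unadjusted p under 0.05, against 17.2% of all genes, a share near that background. The median difference was 0.23 over the members and -0.09 over all genes. Clec4g differed by 0.01 (SE 0.36, 95% interval -0.76 to 0.78) and Kdr by 0.11 (SE 0.30, -0.53 to 0.75). Stab2 differed by -0.32 (SE 0.28) and Flt1 by 0.45 (SE 0.31). Lyve1 differed by 0.93 (SE 0.71). Its wild-type values were far apart, with mouse 552 at 0.14 and mice 641 and 1110 at -2.19 and -2.46. Without mouse 552 the difference was 1.76 (unadjusted p = 0.023, adjusted p = 0.20, limma). Without mouse 1110 it was 0.46 (unadjusted p = 0.57, limma), and without knockout mouse 638 it was 1.55 (adjusted p = 0.13, limma). The mean of both Lyve1 probes gave 0.33. Wild-type mice 552 and 1110 were scanned on another day than all knockout non-tumor arrays. With scan day in the fit Eng differed by -1.12 and Cdh5 by 0.69. That fit set the knockout arrays against wild-type mouse 641 alone, the array with the most probes well above background. No slide held both 12-month wild-type and knockout non-tumor arrays, so genotype and slide cannot be told apart in this comparison.

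The difference of the knockout-minus-wild-type differences at 12 and 2 months was -1.36 (SE 0.57) for Eng, with an unadjusted p of 0.031 and an adjusted p of 0.495 (limma). Eng was the only member of 10 with an unadjusted p under 0.05 there, beside 9.56% of genes, and 0% of genes passed adjustment. For Lyve1 the value was 1.12 (SE 1.11) and for Cdh5 0.56 (SE 0.39), both within the spread.

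Ageing in wild-type liver, 12 against 2 months, gave positive differences for 9 of 10 members, with a median of 0.33 against -0.03 over all genes. Pecam1 read -2.89 and -3.02 at 2 months and -2.13, -1.64 and -2.81 at 12 months, a difference of 0.76 (SE 0.40, unadjusted p = 0.074, adjusted p = 0.51, limma). All 12-month values lay above the 2-month pair. Flt1 likewise read 0.84 and 0.80 at 2 months and 1.24, 1.27 and 1.22 at 12 months, but its difference of 0.42 (SE 0.37) had an unadjusted p of 0.27 under the spread shared by all groups, and its dimmer probe differed by -0.20. No member and 10.6% of genes had an unadjusted p under 0.05, and no member and 0.0406% of genes (11) were called. No slide held wild-type mice of both ages, and 12-month mice 552 and 1110 were scanned on another day than the 2-month mice. Age and slide therefore cannot be told apart within the wild-type arrays. With the slide in the fit Clec4g differed by 2.07 in place of 0.41 and Lyve1 by -1.34 in place of -0.55. The slide fit rests on 12-month mouse 641 alone, linked to the 2-month pair through slides that held knockout and hemizygous mice. With the scan day Pecam1 differed by 1.32 and Vwf by -0.10 in place of 0.13. The scan-day fit likewise rests on mouse 641 alone at 12 months.

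In non-tumor knockout liver Eng was lower at 8 months, at -0.38, 0.44 and 0.20, than at 2 months, at 1.51, 0.93 and 1.32. The 8-month values all lay below the 2-month values. The difference was -1.16 (SE 0.39), a 2.24-fold lower signal, with an unadjusted p of 0.010 and an adjusted p of 0.19 (limma), and it was the only one of 10 members with an unadjusted p under 0.05 in a comparison where 16% of genes had one and 0% passed adjustment. Against 12 months the 2-month difference of Eng was -0.74 (SE 0.37, unadjusted p = 0.063) and that of Cdh5 0.64 (SE 0.25, unadjusted p = 0.022, adjusted p = 0.23). Cdh5 was then the 1 member under 0.05, beside 17.3% of genes, and 0.00737% of genes (2) were called. The groups did not overlap, though the 1.0 of knockout mouse 137 lay next to the lowest 12-month value of 1.02, while mice 64 and 69 read 0.10 and 0.60. Between 8 and 12 months of the knockout no member and 5.23% of genes reached an unadjusted p of 0.05, 0% passed adjustment, and 8 of 10 members were higher at 12 months with a median of 0.23 (-0.05 over all genes). The non-tumor knockout arrays of 2, 8 and 12 months shared no slide, so age and slide cannot be told apart in these comparisons.

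Tumors were compared with the non-tumor liver of the same animal. Clec4g, the sinusoidal lectin, was lower in the tumor in 6 of 7 animals. Its tumor and non-tumor levels were 2.60 and 3.99 in mouse 1347, 2.91 and 3.03 in mouse 1287 and 3.59 and 4.01 in mouse 934, all 8 months old. In the 12-month mice they were 2.85 and 4.05 in mouse 1109, 4.08 and 4.06 in mouse 638, 3.14 and 3.67 in mouse 702, and 3.61 and 3.79 in mouse 793. The difference was largest in mice 1347 and 1109, at -1.38 and -1.21, and was 0.02 in mouse 638. The mean difference was -0.54 (SE 0.21), a 1.46-fold lower signal, with an unadjusted p of 0.028 and an adjusted p of 0.999 (limma, animal as a block).

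Clec4g was the 1 member of 10 with an unadjusted p under 0.05, beside 4.05% of the 24611 genes tested, and 0 members and 0% of genes (0, with 996 at an unadjusted p under 0.05) passed adjustment. Both arrays of mouse 1347 lay on different slides scanned on different days; over the other 6 animals the mean was -0.40 with an unadjusted p of 0.064. The remaining members had mean differences from -0.23 (Tek, SE 0.25) to 0.32 (Lyve1, SE 0.27), and the median over all 10 was 0.0008, as against -0.02 over all genes. Stab2 differed by -0.06 (SE 0.15) and Cdh5 by 0.02 (SE 0.18), and for 9 of 10 members the 95% interval lay within 1 log2 unit of 0.

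**Figure D3:**
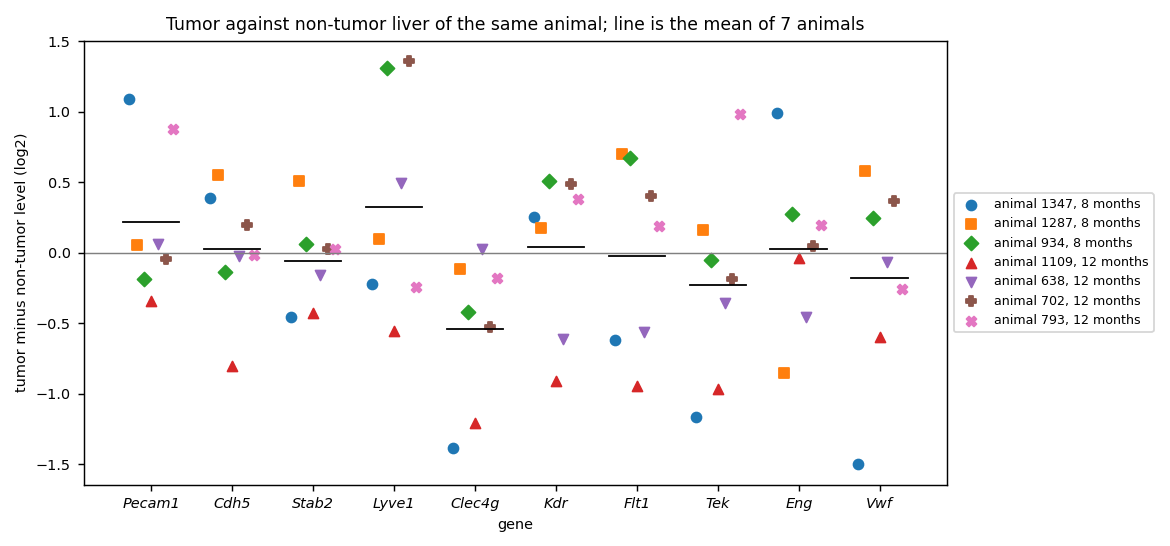
Tumor minus non-tumor level (log2, vertical axis) for each gene (horizontal axis), 1 symbol per animal, with the mean of the 7 animals as a line. For Clec4g 6 of 7 symbols lie below 0, while the other genes have animals on both sides.

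Animals differed in the direction of most members. Vwf ran from -1.50 in mouse 1347 to 0.58 in mouse 1287. Tek was lower in the tumors of mice 1347 and 1109 by -1.17 and -0.97 but higher in that of mouse 793 by 0.98. Kdr was lower in the tumors of mice 1109 and 638, at -0.91 and -0.61, and higher in those of the other 5 animals, by 0.18 to 0.51. Lyve1 was higher by 1.31 and 1.36 in the tumors of mice 934 and 702 and between -0.55 and 0.49 in the others. Eng ran from -0.85 in mouse 1287 to 0.99 in mouse 1347. The change from non-tumor to tumor did not pass a test of difference between 8 and 12 months for any member, with no member and 6.06% of genes at an unadjusted p under 0.05 and 0% called; all but 1 of the intervals reached beyond 1 log2 unit.

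Tumors of 12 months were also compared with wild-type liver of that age, in a fit of all 25 arrays with the animal as a random block. Eng differed by -0.93 (SE 0.38), with levels of -0.17, 1.0, 0.22 and 0.75 in tumors 1109, 638, 702 and 793, all below the lowest wild-type value of 1.12 (unadjusted p = 0.025, adjusted p = 0.20, limma). Cdh5 differed by 0.61 (SE 0.28, unadjusted p = 0.040, adjusted p = 0.25), with tumor levels of 0.58, 1.0, 1.25 and 1.35, of which only that of mouse 1109 lay within the wild-type range. These 2 of 10 members compare with 18.4% of genes at an unadjusted p under 0.05; no member and 1.12% of genes (318 of 28436) were called. The comparison shares its wild-type arrays with that of non-tumor liver, where Eng differed by -0.87 and Cdh5 by 0.77. No slide held both the 12-month tumors and the 12-month wild-type livers. Between tumors of 12 and 8 months no member and 2.6% of genes had an unadjusted p under 0.05, and 0% were called.

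Among the 8 groups, the 4 older knockout groups had the lowest means of Eng and Stab2 and, on the brighter probes, the highest of Cdh5, Flt1 and Vwf. On the dimmer probes of Cdh5, Flt1 and Vwf these groups were not the 4 highest. There Vwf was lower than in 12-month wild-type liver by -0.14 in 12-month non-tumor liver and -0.20 in 12-month tumors. The older knockout groups are also tumor and non-tumor liver of the same animals. Eng was highest in 12-month wild-type liver (mean 1.38, SD 0.25, n = 3), followed by hemizygous (1.30, SD 0.57, n = 3) and knockout liver at 2 months (1.25, SD 0.30, n = 3). Young wild-type liver followed at 0.76 (SD 0.02, n = 2). The 4 older knockout groups were lowest, from 0.51 (SD 0.69, n = 4) in 12-month non-tumor liver to 0.09 (SD 0.42, n = 3) in 8-month non-tumor liver. Neighbours in this order overlapped, except knockout and wild-type liver at 2 months, whose difference of 0.49 (SE 0.44) had an unadjusted p of 0.28 (limma). The means of Cdh5 ran from 1.20 (SD 0.19, n = 4) in 12-month non-tumor knockout liver to 0.35 (SD 0.02, n = 2) in young wild-type liver.

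Of the genes, 4 had a further, dimmer probe, and the probes did not always give the same picture. Over the 25 arrays the probes correlated at r = 0.70 for Flt1, 0.67 for Cdh5, 0.36 for Vwf and 0.30 for Lyve1. Their differences had the same sign in 11 of 13 comparisons for Flt1, in 10 for Cdh5, in 5 for Vwf and in 3 for Lyve1. For Lyve1 the brighter probe differed by 0.93 between 12-month knockout and wild-type liver and the dimmer by -0.28. The directions given for Lyve1 and Vwf therefore hold for the brighter probe, as does the order of the group means of Cdh5 and Flt1.

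**Figure D4:**
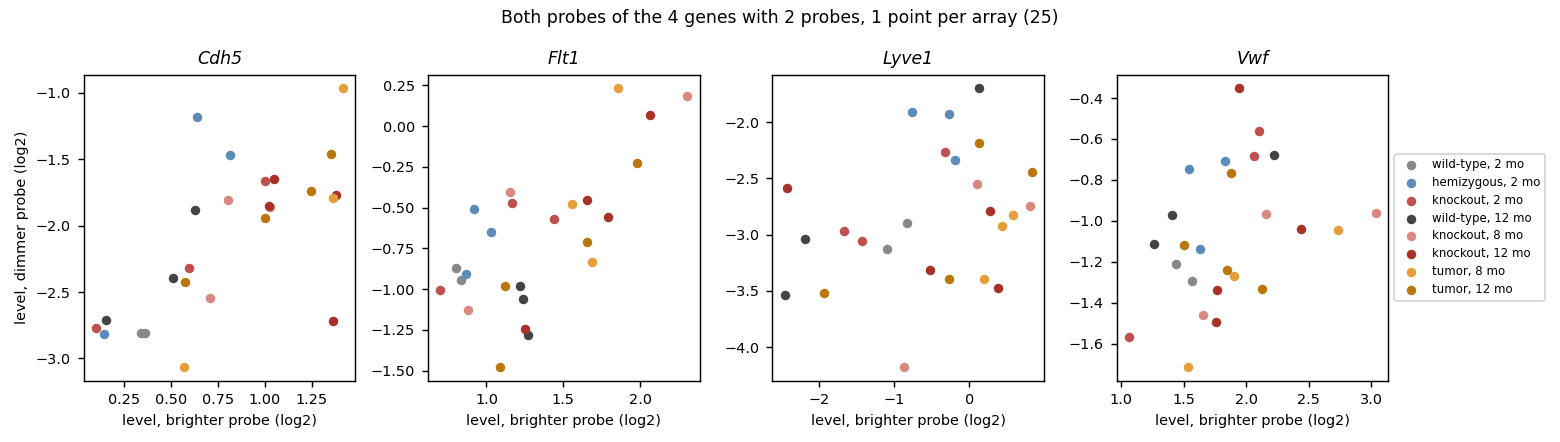
Level of the brighter probe (horizontal axis) against that of the dimmer probe (vertical axis), both log2 minus the array's 75th percentile, for the 4 genes with 2 probes, 1 point per array coloured by group. Points follow a rising line for Cdh5 and Flt1 and scatter for Lyve1 and Vwf.

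Among themselves, 33 of 45 pairs of members correlated positively over the 25 arrays (median r = 0.34), and 40 of 45 did so after each group's mean was removed (median r = 0.42). The arrays share RNA inputs and normalization, and tumor and non-tumor arrays share animals, so these are descriptions. Stab2 and Clec4g, whose upstream bases are printed above, correlated at r = 0.70 and at 0.84 within groups. A broader set of Cdh5, Kdr, Flt1 and Tek correlated at 0.60 to 0.75, and Tek and Flt1 also with Vwf, at 0.67 and 0.63. Eng correlated with Stab2 at 0.64 but at -0.58 with Lyve1, -0.49 with Vwf and -0.45 with Flt1. Within groups these were nearer 0, at 0.40, -0.44, -0.31 and -0.17.

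**Figure D5:**
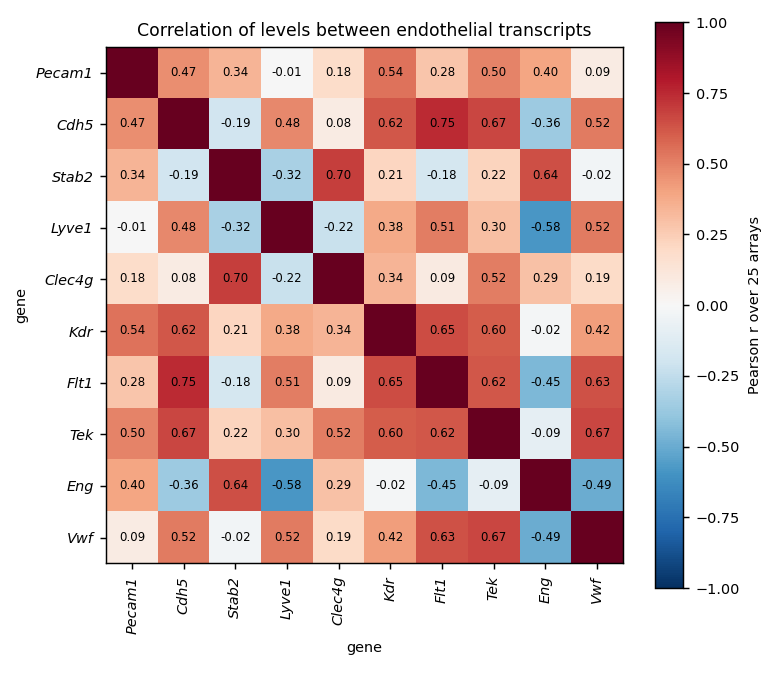
Pearson correlation of levels over the 25 arrays for each pair of genes (both axes list the genes; colour scale from -1 to 1). Stab2 and Clec4g correlate at 0.70, and the row of Eng is negative with Lyve1, Vwf and Flt1.

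Of 10949 named genes well above background on all 25 arrays, those most like the mean of the members were Fgd5 (r = 0.81), Rilpl1 (0.81), Art3 (0.79), Oit3 (0.78), Myct1 (0.78) and Cnr2 (0.77). Closest to single members were Prkch to Pecam1 (0.86), Fyn to Cdh5 (0.93), Dnase1l3 to Stab2 (0.77), Angpt2 to Lyve1 (0.84), Mapk12 to Kdr (0.80), Adam23 to Tek (0.82), Wnt2 to Clec4g (0.83), Pear1 to Flt1 (0.89), Adgra2 to Vwf (0.83) and Iffo2 to Eng (0.92).

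Other vessel genes came from lists of pathways and vessel types, 85 genes that are no members. In the 3 main comparisons none of them passed adjustment. Of 10 further sinusoidal genes 9 had positive differences between 12-month non-tumor knockout and wild-type liver, as did 44.8% of all genes. The median was 0.27 against -0.09 over all genes. At an unadjusted p under 0.05 (limma) 2 were higher and 1 lower, beside 17.2% of all genes. Kupffer genes had a median difference of 1.33 in the same comparison, and their part in these values was not tested. The mannose receptor Mrc1 differed by 1.11 (SE 0.32, adjusted p = 0.13, limma), with wild-type levels from -0.38 to 0.69 and knockout levels from 0.79 to 1.69. The lectin receptor Clec1b differed by 1.20 (SE 0.40, adjusted p = 0.16), whereas Gata4, the transcription factor that keeps sinusoidal identity, differed by -1.34 (SE 0.43, adjusted p = 0.15). The 12 pan-endothelial genes had a median of 0.55, with 4 higher and 1 lower at an unadjusted p under 0.05, the mark that 17.2% of all genes reached. Ramp2, part of the adrenomedullin receptor, differed by 0.91 (SE 0.30, adjusted p = 0.16). The transcription factor Erg differed by -1.77 (SE 0.59, adjusted p = 0.16), with only 1 of 4 knockout arrays well above background.

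Cd34, a marker of capillary endothelium that also marks blood progenitors, was called in 12-month tumors against wild-type liver. Its level ran from 0.16 to 2.21 in the 4 tumors, from -0.09 to 1.60 in the 4 non-tumor livers and from -2.0 to -0.87 in the 3 wild-type livers. The tumors lay above all wild-type arrays, by 2.69 (SE 0.57, adjusted p = 0.045, limma). Non-tumor knockout liver differed by 2.49 (SE 0.55, adjusted p = 0.10). At 2 months its level ran from -1.10 to -0.36 in knockout and from -1.73 to -1.52 in wild-type mice. Of the 8 capillary and angiogenic genes, Cd34 among them, 6 had positive differences in 12-month tumors against wild-type liver, as did 48.4% of all genes. In 12-month non-tumor liver 5 did, beside 44.8%. Only Cd34 had an unadjusted p under 0.05 (limma) in either comparison, a mark reached by 18.4% and 17.2% of all genes. After adjustment 1.12% of all genes were called in the tumor comparison.

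Bmpr2, the type II receptor that works with Eng in BMP9 signalling, was called lower in the same comparison. Its level ran from -2.57 to -1.87 in the 12-month tumors and from -1.36 to -1.06 in 12-month wild-type liver, a difference of -1.08 (SE 0.26, adjusted p = 0.049, limma). The groups did not overlap, and non-tumor knockout liver differed by -0.94 (SE 0.24, adjusted p = 0.11). Both calls were near the threshold: without wild-type mouse 1110 the adjusted p was 0.24 for Cd34 and 0.27 for Bmpr2, and without the animal block 0.065 and 0.068. Acta2, a stellate and pericyte marker, was the other list gene called (-1.47, adjusted p = 0.046), but the mean of its probes gave 1.06, so its direction depends on the probe.

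Other genes of the BMP9 and endoglin pathway did not pass adjustment in the 3 main comparisons. Id1, a direct target of BMP signalling, differed by 3.04 (SE 0.95, adjusted p = 0.15, limma) and the inhibitor Smad7 by 1.88 (SE 0.66, adjusted p = 0.17) between 12-month non-tumor knockout and wild-type liver. At 2 months Id3 differed by 2.01 (SE 0.64, adjusted p = 0.38). Of 13 genes of this list, 3 were higher and 1 lower at an unadjusted p under 0.05 at 12 months, beside 17.2% of all genes, and the list's median was -0.01. Among 8 VEGF ligands and receptors 1 was higher and 1 lower at that mark, a share near the 17.2% of all genes, the ligand Vegfc by 0.92 (SE 0.35) and the co-receptor Nrp2 by -0.80 (SE 0.35), and no angiopoietin or Tie gene reached it.

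Genes of the vessel Notch pathway had positive differences for 8 of 10 at 12 months, as did 44.8% of all genes, with the target Hey1 at 1.54 (SE 0.56, adjusted p = 0.18, limma). At 2 months 9 of 10 did, beside 48.9% of all genes, with Heyl at 1.68 (SE 0.48, adjusted p = 0.33, limma). Hemizygous against wild-type liver also gave positive differences for 9 of 10. In wild-type liver 2 of the 10 were never well above background at 2 months and 1 at 12 months. Among coagulation partners of Vwf, the protein C receptor Procr differed by 1.72 (SE 0.39, adjusted p = 0.10) and thrombomodulin (Thbd) by 1.18 (SE 0.47) at 12 months. Of the adhesion molecules, Vcam1 differed by 1.42 (SE 0.52, adjusted p = 0.18) at 12 months and Icam1 by 1.59 (SE 0.48, adjusted p = 0.36) at 2 months. In tumors against non-tumor liver, the angiopoietin Angpt2 differed by 0.52 (SE 0.20) and was higher in 6 of 7 animals, the tip-cell gene Esm1 by 0.85 (SE 0.33) in 5 of 7, and the TGF-beta receptor Tgfbr2 by 0.55 (SE 0.19) in 7 of 7. Dnase1l3, a sinusoidal nuclease, differed by -0.52 (SE 0.21) and was lower in 6 of 7 animals, as Clec4g was. Angpt2, Esm1, Tgfbr2 and Dnase1l3 each had an adjusted p of 0.999 (limma). Among the 10 further sinusoidal genes, 1 had an unadjusted p under 0.05, beside 4.05% of all genes. Their median was -0.15 against -0.02 over all genes. Of the 10, 1 had a positive mean difference, and Stab1 was higher in the tumors of 5 of 7 animals.

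Markers of neighbouring cells also differed in the older mice, none past adjustment in non-tumor liver or between paired tissues. Kupffer genes had a median difference of 1.33 at 12 months, with 5 of 6 at an unadjusted p under 0.05 (17.2% of all genes), and their mean level ran from -0.05 to 1.75 in wild-type and from 1.96 to 3.25 in non-tumor knockout liver. In tumors against non-tumor liver 3 of 6 were lower at that mark (4.05% of all genes in either direction), among them Clec4f (-0.65, SE 0.22) and Timd4 (-0.75, SE 0.30), with a median of -0.47. Leukocyte genes had a median of 1.16 at 12 months. Of 6 measured platelet genes 5 had negative differences at 12 months, with a median of -0.53; platelets also carry Vwf and Pecam1. Their part in the endothelial values was not tested.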

How the data were processed

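RNA of 25 liver samples was hybridised to single-colour Agilent arrays. The intensity values were taken from the deposited scanner files, whose processed signal is background-corrected per the file headers, and the deposited series matrix holds log2 values of the same arrays, which served as an alternative. The submitters' processing notes name limma without its role.

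From each log2 processed signal the 75th percentile of its array was subtracted. Probes were named through their accession in a RefSeq gene table (GRCm38.p6): 24375 of 41174 probes (59.2%) gave 17016 symbols, and 16799 unnamed probes were kept as features of their own. A gene was read from its probe with the highest mean signal. Genes well above background on at least 2 arrays (3 for the paired fit) were tested with limma 3.58.1 in R 4.3.3, two-sided, with Benjamini-Hochberg adjustment over all genes and a threshold of 0.05. The 18 non-tumor arrays formed one fit, the 14 arrays of the 7 paired animals another with the animal as a block, and all 25 arrays one more, with the animal as a random block. Pairing comes from the animal number in the sample titles, and 4 of 7 tumor arrays correlated best with the non-tumor array of their own animal. The scanner files used hold no mean signal, so normexp was run on the median signals, a choice made after seeing the files.

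The members and the gene lists were chosen with earlier results of these data known. Named beside the 10 members are up to 3 genes of each list with the smallest p in each of 3 main comparisons, any list gene past the threshold, and the genes most correlated with the members. Marker lists of Kupffer, stellate, platelet, leukocyte and hepatocyte cells were described by counts and medians. Samples with different animal numbers were taken as separate animals, and their number limits the precision. The fits were tested on simulated data.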

Additional observations from a re-analysis of the deposited data

How the results depend on the processing

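Of the member counts under all alternatives, 335 kept the reported count of 0 and 1 did not: leaving out 1 array at a time, the count in 12-month non-tumor knockout against wild-type liver ran from 0 to 1, the 1 being Eng without the non-tumor array of mouse 638. No member with an unadjusted p under 0.05 in either fit reversed. Among list genes, Tgfb1 turned to -0.20 at 2 months with the slide as a fixed block, Madcam1 to -1.86 at 12 months with the scan day as a block, and, with the mean of all probes of a gene, Sox17 to -0.29 and Acta2 to 1.02 in non-tumor liver and Sox17 to -0.074 and Acta2 to 1.06 in tumors against wild-type; the cause was not tested. The value of Tgfb1 rests on knockout mouse 137 alone and that of Madcam1 on wild-type mouse 641 alone. The number of all genes called moved widely. For 12-month non-tumor liver (4 as reported) it was 2 with the slide as a random block. Without the non-tumor array of mouse 638 it was 2850. For 12-month tumors against wild-type (318 as reported) it ran from 0 to 1495 over the settings. The calls of Cd34 and Bmpr2 were lost with no filter (adjusted p = 0.0559 and 0.0618, limma) with the mean of all probes (0.0531 and 0.0548), with the slide as a random block (0.137 and 0.14) and with only the compared groups in the fit (0.245 for both), and that of Bmpr2 with the scan day as a block (0.0894). Without the replicate block the paired comparison again called 0 members, and Clec4g differed by -0.54 (unadjusted p = 0.0428, limma). Leaving out a 2-month wild-type mouse leaves 1, which is then assumed to vary like the other groups.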
